A study of Mus musculus with 6 samples.

Results

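The genes of the cytosolic ribosomal proteins were examined for H3K4me3 and for HA-ASH2L binding at their promoters in the mouse embryonic stem cell line E14. They were selected by symbol alone as the protein-coding genes of GENCODE vM21 on chromosomes 1 to 19 that are named Rpl, Rps or Rplp with a number, and 71 of 20807 protein-coding genes met this rule. The 71 genes encode 40 proteins of the large subunit, 28 proteins of the small subunit and the 3 proteins of the P stalk. The CUT&RUN experiment had 6 samples in 3 groups, each in 2 replicates. The HA-ASH2L line was used for an anti-HA and an anti-H3K4me3 group, and the wild-type parental line for a further anti-HA group. HA-ASH2L E14 cells, labelled HA-Ash2L knock-in, carry an HA-tagged ASH2L transgene that doxycycline induces from a piggyBac vector and come from a picked single colony, so that they stand for a clone with ASH2L expressed in addition to the endogenous gene. Both lines were grown in serum with LIF, and doxycycline is given for all 3 groups for 48 h. According to the labels, 1000000 cells entered each anti-HA experiment and 100000 cells each anti-H3K4me3 experiment, whereas the published methods give a single cell number for every experiment, so the input of the anti-H3K4me3 group is not settled. The authors merged the replicates before peaks were called, and the 2 peak lists carry no value for a single sample. The spread between replicates could therefore not be computed, no difference was tested, and all comparisons below describe 1 merged library per antibody. Anti-HA data of the parental line were not analysed here.

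Ribosomal proteins assemble with ribosomal RNA into the large and the small subunit of the ribosome, mostly in the nucleolus, and most of them are needed for its assembly or function. Their genes are short, are transcribed at high rates in dividing cells, and many start within a run of pyrimidines, the TOP sequence, through which translation of the mRNA is tied to growth signals. Several of them carry small nucleolar RNAs in their introns. H3K4me3 is a histone mark of active and CpG-rich promoters and is written by the MLL/SET1 methyltransferases, in which ASH2L is a core subunit that partners with RbBP5, WDR5 and DPY30.

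The H3K4me3 list had 59927 peaks from 27328071 tags after removal of redundant ones, and the ASH2L list had 2464 peaks from 25677963 tags. A gene was called marked when a peak overlapped, by at least 1 bp, the promoter of any of its transcripts, which extended from -1000 to +100 bp around the start site. Where several peaks did, the one with the most tags was used. Of 8 genes known as markers of embryonic stem cells, 3 had an H3K4me3 promoter peak. These were Zfp42 (2746 bp, 570 tags), Esrrb (3409 bp, 430 tags) and Klf4 (5917 bp, 1239 tags), whereas Pou5f1, Sox2, Nanog, Tdgf1 and Dppa5a had none. Of 6 markers of other tissues, Ckm, the muscle creatine kinase gene, had a peak of 1765 bp with 277 tags. The lists alone thus do not show the cell type, and a promoter without a listed peak cannot be read as a promoter without the mark.

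An H3K4me3 peak was listed at the promoters of 45 of the 71 ribosomal protein genes (63.4%, 95% Wilson interval 51.8% to 73.6%). This share was close to that of all protein-coding genes, of which 69.8% were marked (14520 of 20807). It depended on the definition, falling to 26.8% (38.1% of all genes) when the midpoint of the peak had to lie in the promoter, and to 1.41% (36.7% of all genes) when only peaks at or above the median fold enrichment of the list were counted, where it was no longer close to that of all genes. The large subunit had 23 marked genes of 40, the small subunit 20 of 28, and the stalk 2 of 3. The comparison with other housekeeping genes looked different. All 78 genes of mitochondrial ribosomal proteins were marked (lower end of the interval 95.3%), as were 37 of 38 proteasome subunit genes (97.4%) and 24 of 25 ribosome biogenesis genes (96.0%). Of 13 other genes known for a TOP sequence, mostly of translation factors, 10 were marked (76.9%). Eef2, the factor that moves the ribosome along the mRNA, the initiation factor gene Eif4b and Nap1l1, which encodes a nucleosome assembly protein, were not. Intervals of shares in this text cover counting error only.

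The promoters of the ribosomal protein genes without a peak were rich in CpG, in contrast to those of most genes without a peak. The ratio of observed to expected CpG between -250 and +50 bp of the representative start site had a median of 0.91 in the 45 marked and 0.8 in the 26 unmarked ribosomal protein genes. It was 0.73 in all marked and 0.16 in all unmarked protein-coding genes. Among protein-coding genes with a ratio of at least 0.6, 95.1% had an H3K4me3 peak (9516 of 10004). Among ribosomal protein genes above the same limit, 38 of 60 had one (63.3%, interval 50.7% to 74.4%), compared with 70 of 70 mitochondrial ribosomal protein genes and 29 of 30 proteasome subunit genes (96.7%). The ribosomal protein genes made up 22 of the 488 protein-coding genes that reached this ratio and had no listed peak.

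**Figure D1:**
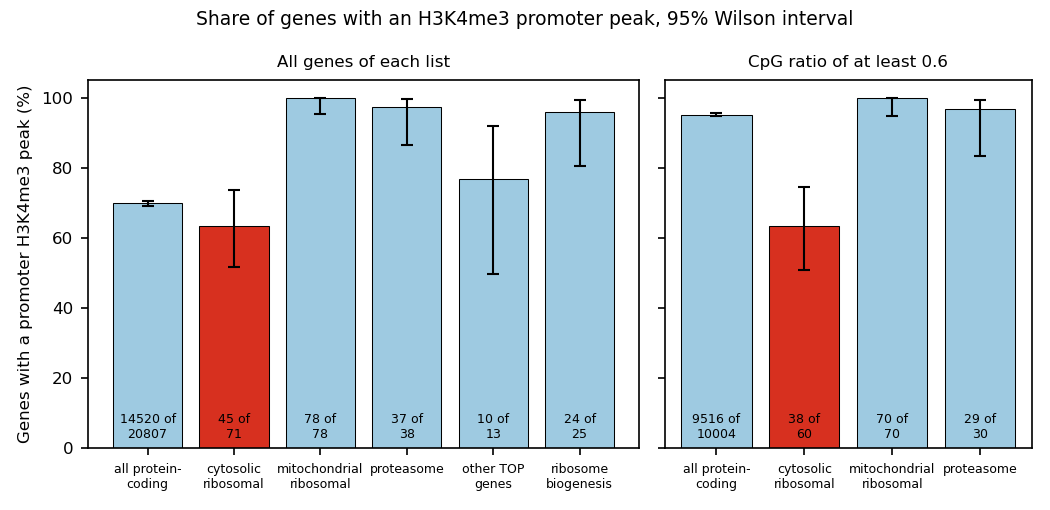
Bars give the percentage of genes with an H3K4me3 promoter peak in each list of genes, and error bars are 95% Wilson intervals. The left panel covers all genes of a list and the right panel those with a promoter CpG ratio of at least 0.6. Cytosolic ribosomal protein genes stand at 63.4% and 63.3%, while all protein-coding genes stand at 69.8% and 95.1%.

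The 26 genes without a peak belonged to both subunits. In the large subunit they included Rpl7a, Rpl8, Rpl10a, Rpl12, Rpl13a, Rpl14, Rpl19, Rpl22, Rpl23, Rpl23a, Rpl28, Rpl30, Rpl35, Rpl35a, Rpl36 and Rpl38. In the small subunit they included Rps2, Rps3, Rps10, Rps15a and Rps19, and in the stalk Rplp2 was the only gene. Among them are Rpl38, which is known for a role in the translation of Hox mRNAs, Rps19, the gene most often mutated in Diamond-Blackfan anemia, Rps3, which also has a part in DNA repair, and Rpl22, whose loss impairs T cell development. None of the 26 gene bodies held an H3K4me3 peak. The nearest peak was between 2109 bp (Rpl28) and 14839 bp (Rpl12) from the start site, with a median of 7336 bp, and for 19 of the 26 it was more than 5000 bp away. The peaks on both sides of these genes left gaps of 8144 bp at Rpl8 to 64676 bp at Rpl35, with a median of 22352 bp. Some neighbouring genes lie in the same gap.

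**Figure D2:**
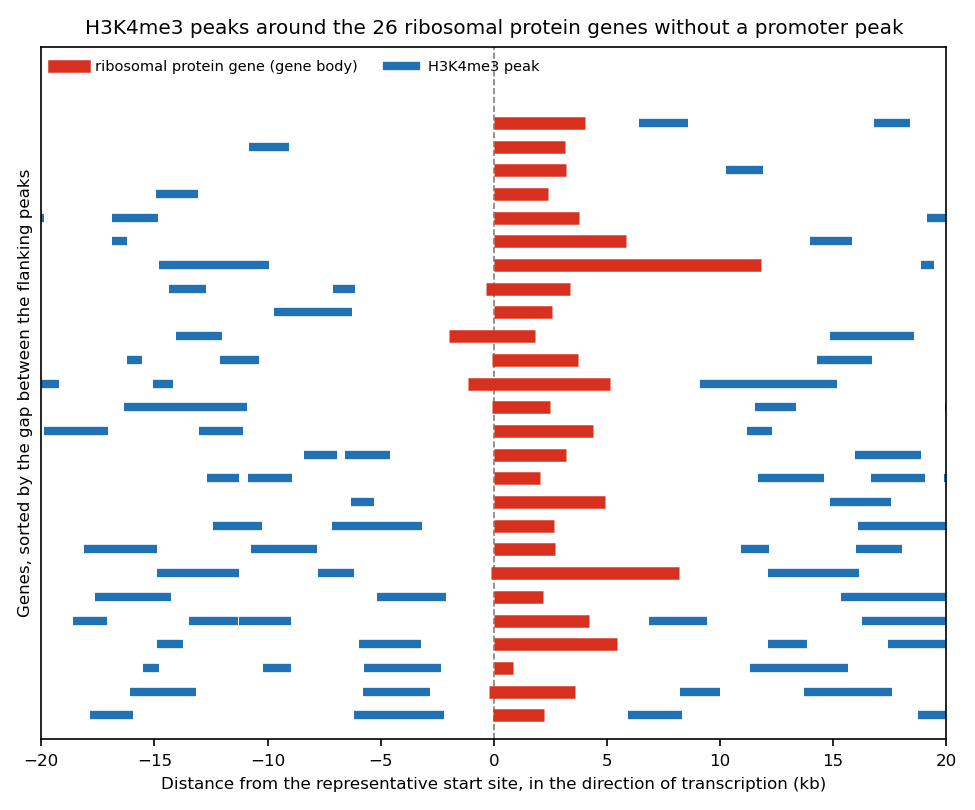
Positions of H3K4me3 peaks (blue) within 20000 bp of the representative start sites of the 26 ribosomal protein genes without a promoter peak, in kb along the direction of transcription, with the gene bodies in red and 1 gene per row, sorted by the gap between the flanking peaks. No blue bar overlaps a red one, and the nearest lies 2109 bp from a start site.

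The marked ribosomal protein genes had wide H3K4me3 peaks. Their median width was 6043 bp (95% interval of the median 5547 to 6318 bp), compared with 2964 bp for all marked genes. At least 5000 bp were covered by 36 of the 45 peaks (80%), compared with 12.8% of the peaks at all marked genes (1853 of 14520). Rps26 (5002 bp) was just above this limit and Rpl29 (4642 bp) just below it. The peaks held a median of 908 tags (interval 829 to 1011) against 476 at all marked genes. Per length, the densities were alike, with a median of 159 tags per kb (interval 149 to 165) against 155. The widths of mitochondrial ribosomal protein genes (median 3121 bp) and proteasome subunit genes (3019 bp) were near that of all marked genes. Ribosome biogenesis genes had a median of 4296 bp, and 10 of their 24 peaks reached 5000 bp, among them those of Npm1 (7443 bp), Nop58 (7286 bp), Fbl (7143 bp) and Ncl (6966 bp), which encode abundant nucleolar proteins. The other TOP genes had a median of 4998 bp.

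**Figure D3:**
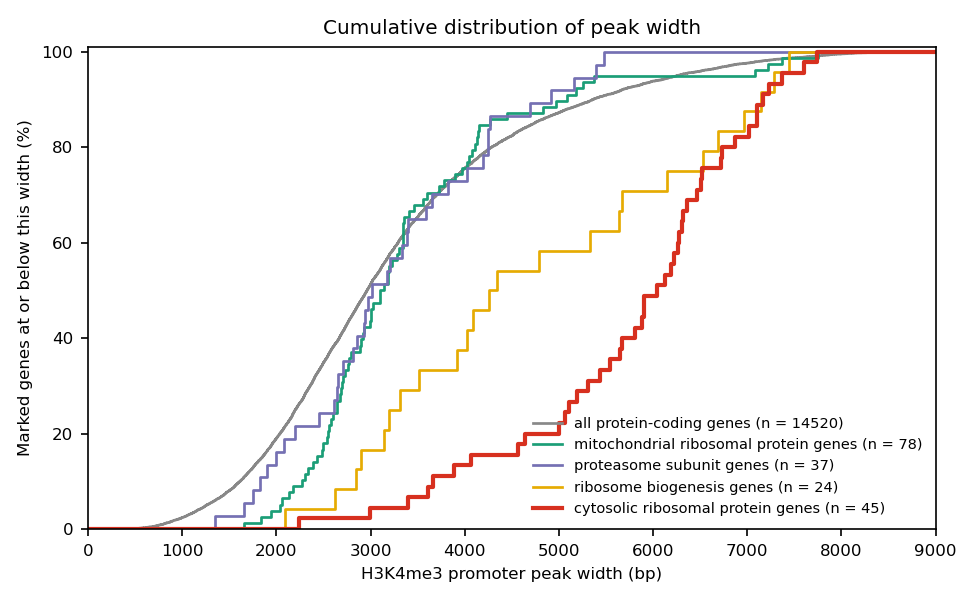
Cumulative percentage of marked genes against the width of their H3K4me3 promoter peak in bp, one line per list of genes. The line of the 45 cytosolic ribosomal protein genes reaches 50% near 6043 bp, and those of all marked, mitochondrial ribosomal protein and proteasome genes do so near 3000 bp.

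In the large subunit, the median width was 6262 bp in 23 marked genes, with a range of 4571 bp (Rpl27) to 7599 bp (Rpl17, shared with BC031181). Rpl11 had a peak of 7368 bp with 915 tags at chr4:136047017-136054384, and Rpl5 one of 7167 bp with 906 tags at chr5:107899109-107906275. The proteins of both genes bind MDM2 when ribosome assembly is disturbed. A narrower second peak of Rpl11, 1634 bp wide with 103 tags, lay at another annotated start 24483 bp downstream. Rpl37 (6871 bp, 1283 tags) and Rpl4 (7101 bp, 1222 tags) had the most tags of the large subunit, and the Rpl4 peak also overlapped the promoter of Zwilch. Rpl24, the gene mutated in the Belly spot and tail mouse, had 846 tags over 5908 bp, and Rpl26, which is known to bind the Trp53 mRNA, 845 tags over 6123 bp. By fold enrichment at the summit, Rpl29 (8.08), Rpl15 (6.27) and Rpl34 (6.09) were highest of all 45 genes. Rpl18 (2.84), Rpl7 (3.06) and Rpl32 (3.25) were lowest. The peaks of Rpl15, Rpl18 and Rpl7 were shared with promoters of other genes.

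In the small subunit, the median width was 5850 bp in 20 marked genes. The widest peak of all ribosomal protein genes was at Rps28, with 7745 bp and 1118 tags at chr17:33819841-33827585, and Rps18 had the most tags, 1482 over 7099 bp at chr17:33950069-33957167. Both peaks were shared with other genes, that of Rps28 with Kank3 and Ndufa7 and that of Rps18 with B3galt4 and Vps52, whose start site was 135 bp away. Rps6, whose protein is phosphorylated in response to growth signals, had a narrower peak of 3663 bp with 628 tags. Rps14, whose human counterpart is lost in a deletion form of myelodysplastic syndrome, had 491 tags over 4064 bp in a peak shared with Ndst1. At Rps27a, which encodes a fusion of ubiquitin and a ribosomal protein, 908 tags lay in 5650 bp, shared with Clhc1. In the stalk, Rplp0 and Rplp1 had peaks of 2998 bp (464 tags) and 3397 bp (548 tags), 2 of the 3 narrowest in the whole set, and Rplp2 had none. The density of tags varied from 114 per kb at Rpl3 to 209 per kb at Rps18, a narrower range in proportion than that of the widths. The peaks of Rpl3 and Rps18 were shared with other genes.

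For 3 of the 45 genes, no listed peak met the promoter of the representative start site, and the peak lay at another annotated start. The 2239 bp peak assigned to Rps24, the narrowest of all with the fewest tags (345), ended 3146 bp upstream of the representative start site and also overlapped the promoter of Polr3a. The 6717 bp peak of Rpl3 ended 4877 bp upstream and was shared with Syngr1. The peak of Rpl17 began 743 bp downstream and was shared with BC031181. The summits of these peaks lay at -3752 bp (Rps24), -7866 bp (Rpl3) and +7224 bp (Rpl17), the last beyond the gene end at +4823 bp. The nearest start sites of the other genes were 3660 bp (Polr3a), 7928 bp (Syngr1) and 7310 bp (BC031181) from the representative ones. Rpl18 had a pair of adjacent peaks, chr7:45714027-45715926 over the start site with 385 tags and chr7:45715985-45721657 over the gene body with 1026 tags. The latter, which began 528 bp downstream of the representative start site, had more tags and gave the values of Rpl18 in this text. In all, 16 of the 45 peaks also overlapped the promoter of another protein-coding gene, and for these the tags cannot be divided between the genes. In the other 29 genes the median was 5886 bp for width and 845 for tags.

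The peaks extended over whole genes. They covered a median of 100% of the gene body, compared with 13.2% for all marked genes, and they passed the annotated gene end at 31 of 45 genes (68.9%), compared with 4.05% of all marked genes. The median length of the 45 genes was 3243 bp, whereas that of all marked genes was 24842 bp, and the part of short genes in this difference was not tested. The upstream edge lay at a median of -1553 bp (all marked genes -1148 bp) and the downstream edge at +4238 bp (all +1702 bp), so that the additional width was mostly on the side of the gene. At Rpl41, one of the shortest genes with 1192 bp, the peak went on to +5644 bp and also overlapped the promoter of Zc3h10, whose start site was 1531 bp away. The summit was at a median of -46 bp from the start site, and 33.3% of the summits were downstream of it, compared with 51.7% for all marked genes.

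**Figure D4:**
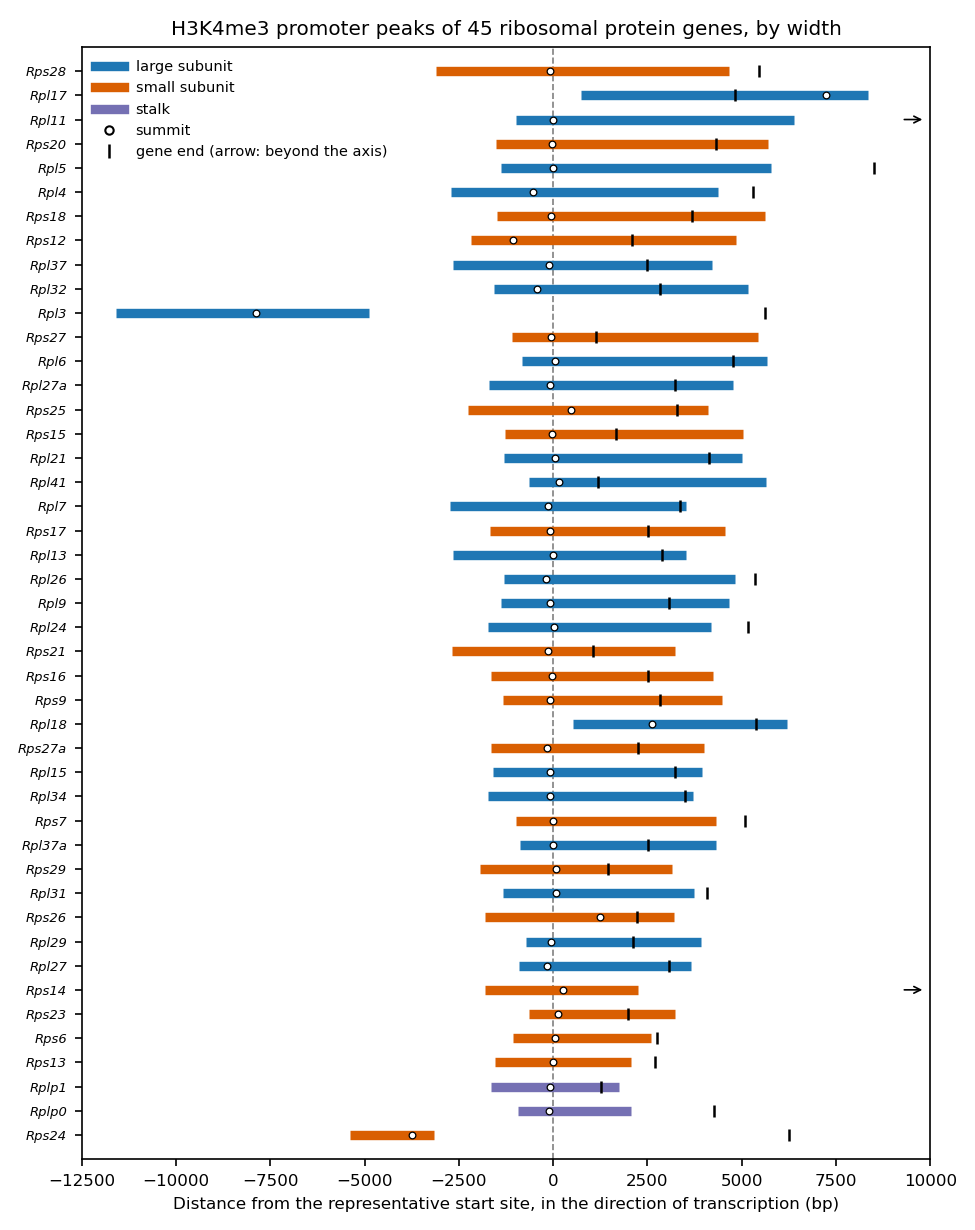
Extent of the H3K4me3 promoter peak of each of the 45 marked ribosomal protein genes, in bp from the representative start site, sorted by width and coloured by subunit. Circles are summits and ticks are gene ends. Most bars run from upstream of the start site past the gene end, and those of Rpl3 and Rps24 lie wholly upstream.

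Above 3000 bp, wider peaks had lower scores in this list, for ribosomal protein genes as for others. The score is -10 times the log10 of the p-value, with a cutoff of 50, and the background was modelled within 10000 bp from the same library without a control. The median score of all marked genes was 457.1 for peaks under 2000 bp, 778.6 for those of 2000 to 3000 bp and 119.5 for those of 7000 bp or more, and the median fold enrichment was 9.26, 7.45 and 3.52. The 2 ribosomal protein genes with peaks of 2000 to 3000 bp, Rps24 and Rplp0, had a median score of 257.1 and a median fold enrichment of 3.92, below those of all genes of this width. Ribosomal protein genes had a median score of 267.5 for the 15 peaks of 6000 to 7000 bp (all genes 249.6) and of 164.3 for the 8 peaks of 7000 bp or more. The corresponding fold enrichments were 4.20 (all genes 3.92) and 3.55 (all genes 3.52). Over the 45 genes the rank correlation (Spearman) of width was -0.76 with the score, -0.51 with the fold enrichment, 0.81 with tags and -0.03 with tags per kb. The correlation of width with the score was -0.14 over all 14520 marked genes and -0.63 over the 7086 with a peak of at least 3000 bp. These values come from a single merged library and share its background model. The median fold enrichment of the 45 genes, 4.41 (interval 4.10 to 4.89), was below that of all marked genes, 6.34, while their widths were larger. The lowest score was 54.79 at Rpl17, followed by 82.54 at Rpl18 and 104.26 at Rps28. The summit of the Rpl17 peak lay beyond the end of this gene. The widest peak of the whole list had 8609 bp, and only 63 of 59927 peaks exceeded 8000 bp. Whether the 26 genes without a listed peak lacked H3K4me3, or had a domain that the peak caller did not report, cannot be told apart from these lists.

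**Figure D5:**
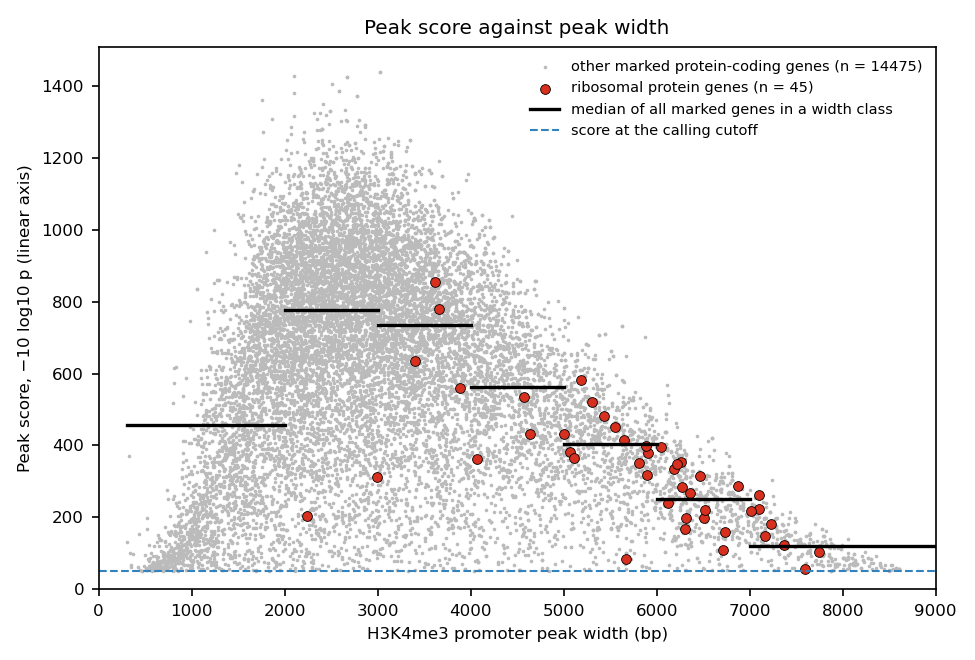
Score of the H3K4me3 promoter peak, -10 log10 p, against its width in bp for 45 ribosomal protein genes (red) and 14475 other marked genes (grey), with the median score of all marked genes per width class (black) and the cutoff of 50 (dashed). Above 3000 bp, red points fall with the grey ones from 854.04 at Rps13 to 54.79 at Rpl17, whose peak is shared with BC031181. The 2 narrower red points, Rps24 and Rplp0, lie below the median of their width class.

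Few ASH2L peaks were at ribosomal protein genes. An ASH2L peak overlapped the promoter of 1 of the 45 marked genes (2.22%, interval 0.393% to 11.6%), compared with 11.3% of all marked genes, a value within the interval. The share among marked genes with an H3K4me3 peak of at least 5000 bp was 12.8% (238 of 1853). Counting all 71 genes, 2 had an ASH2L peak (2.82%), compared with 8.07% of all protein-coding genes. Mitochondrial ribosomal protein genes had 7 of 78 (8.97%), among them Mrpl15, Mrpl40 and Mrps33, and proteasome subunit genes 6 of 37 marked (16.2%), among them Psma4 and Psmc2. Ribosome biogenesis genes had 1 of 24, Rrn3. The other TOP genes had the highest share of these lists, 3 of 10 marked (30%, interval 10.8% to 60.3%), with peaks at Eif3e, Hnrnpa1 and Pabpc1.

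At Rps23 the ASH2L peak was chr13:90923088-90923541, with 19 tags (median of the whole ASH2L list 32), a score of 50.48 and a fold enrichment of 5.39, and extended from +130 to +583 bp of the start site over 112 bp of exon 1 and the adjacent intron, so that it met the promoter of another annotated start and not the representative one. It lay within the H3K4me3 peak of this gene, which was 3882 bp wide with 529 tags and ended at +3230 bp. It ranked at percentile 1.81 of the ASH2L list by tags and at 53.3 by fold enrichment. Of the 26 ribosomal protein genes without an H3K4me3 peak, 1 had an ASH2L peak, compared with 44 of all 6287 protein-coding genes without an H3K4me3 peak (0.7%). Within 10000 bp of the start site, 6 of the 71 genes (8.45%) had an ASH2L peak, compared with 10% of all protein-coding genes (2088 of 20807). Besides Rps23 they included Rpl35 (2080 bp away), Rpl23a (4431 bp), Rplp0 (5634 bp) and Rps28 (6008 bp), and over all 71 genes the median distance to the nearest one was 112829 bp, compared with 198573 bp over all protein-coding genes. These ASH2L values were not set against the anti-HA samples of the parental cells.

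The sequences around the start sites differed between genes, and promoters are printed here to show the bases shared by many of them. They are RefSeq promoters of GRCm38.p6, each from -80 to +20 bp of the RefSeq start site, read 5′ to 3′ on the coding strand. The RefSeq table had an entry for 51 of the 71 genes. Capitals mark CGGAAG or its reverse complement CTTCCG, the core that ETS-family factors such as GABPA are known to bind. Rpl37 at chr15:5116533-5116632 (plus strand) and Rps7 at chr12:28635934-28636033 (minus strand) have 2 cores each. Rpl31 at chr1:39367771-39367870 and Rpl26 at chr11:68901486-68901585 (both plus) have 1 core, and upstream of it runs of pyrimidines of up to 13 and 16 bases. Rplp0 at chr5:115559387-115559486 (plus) has none in this window. Among the peaks used, 1 per gene, that cover the representative start site, that of Rplp0 was the narrowest. Rpl19 at chr11:98026844-98026943 (plus) and Rpl23 at chr11:97782420-97782519 (minus) are from genes without an H3K4me3 peak. Neither has a core in this window, and Rpl19 has a run of 11 pyrimidines. The printed promoters are examples and do not give the shares in marked and unmarked genes, which follow below.
Rpl37: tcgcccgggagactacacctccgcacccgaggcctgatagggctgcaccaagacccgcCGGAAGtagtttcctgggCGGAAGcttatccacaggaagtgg
Rps7: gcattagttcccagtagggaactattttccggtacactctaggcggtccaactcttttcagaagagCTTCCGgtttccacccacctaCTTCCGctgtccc
Rpl31: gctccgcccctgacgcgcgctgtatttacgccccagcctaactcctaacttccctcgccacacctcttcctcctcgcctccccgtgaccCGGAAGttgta
Rpl26: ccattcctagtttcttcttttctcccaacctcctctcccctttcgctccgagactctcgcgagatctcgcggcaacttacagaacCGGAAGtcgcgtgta
Rplp0: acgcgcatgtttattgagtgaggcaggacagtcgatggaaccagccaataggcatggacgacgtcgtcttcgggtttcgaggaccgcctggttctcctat
Rpl19: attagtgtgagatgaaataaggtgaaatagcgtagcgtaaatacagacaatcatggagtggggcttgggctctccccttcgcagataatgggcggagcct
Rpl23: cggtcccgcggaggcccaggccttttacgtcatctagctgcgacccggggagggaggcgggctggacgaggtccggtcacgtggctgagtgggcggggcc

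Over all genes, the same motifs were counted on the genome between -250 and +50 bp of the representative GENCODE start site, on both strands. CGGAAG was present in 27 of the 45 marked (60.0%) and 13 of the 26 unmarked ribosomal protein genes, compared with 21.0% of all and 27.5% of all marked protein-coding promoters. A run of at least 8 pyrimidines on the coding strand within 50 bp of the start site, was present in 64.4% of the marked and 65.4% of the unmarked ribosomal protein genes, in 34.7% of all promoters and in 32.8% of those of marked genes. TGACG, the CRE core, was present in 62.2% and 38.5% (all promoters 23.9%, those of marked genes 29.6%). CACGTG, the E-box bound by MYC and MAX, was present in 3 of the 45 marked genes (6.67%) and in 8 of the 26 unmarked genes (30.8%), with 7.82% in all promoters and 9.44% in those of marked genes. GGGCGG, the GC box, was present in 40.0% and 61.5% (all 46.3%, marked genes 61.5%). CCAAT was present in 28.9% and 34.6% (all 38.0%, marked genes 37.0%), and TATAAA in 11.1% and 7.69% (all 12.6%, marked genes 7.48%). TGACG and GGGCGG can share bases with CGGAAG, and such matches were counted for both. A match is not a binding site, and no count was tested. The median GC content was 55.7% in the marked and 56.0% in the unmarked ribosomal protein genes.

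Genes that host small nucleolar RNAs, which guide the modification of ribosomal RNA, made up 26 of the 71 ribosomal protein genes in the annotation (36.6%), with 51 such RNAs, and 244 of all 20807 protein-coding genes (1.17%). Of the 26 hosts among ribosomal protein genes 14 were marked (53.8%), and of the 45 other ribosomal protein genes 31 (68.9%). Of the 244 hosts among all protein-coding genes, 207 were marked. The H3K4me3 peaks of the 14 marked ribosomal protein hosts had a median width of 6727 bp, with a range of 3613 bp (Rps13) to 7599 bp (Rpl17, shared with BC031181). The median was 5650 bp for the 31 marked ribosomal protein genes without such RNAs. The ranges overlapped, and the difference was not tested. The nearest start site of another protein-coding gene was at a median of 7310 bp from marked and 4224 bp from unmarked ribosomal protein genes.

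Ribosomal genes outside the naming rule or the chromosomes behaved in several ways. Fau, which encodes a ribosomal protein fused to a ubiquitin-like protein, had a peak of 7224 bp (score 215.58). Rack1, the scaffold protein of the small subunit, and Rpsa, the laminin receptor and ribosomal protein, had none. The X-linked genes Rpl10, Rpl36a, Rpl39 and Rps4x had peaks of 4931 to 6196 bp. None of these 8 genes had an ASH2L peak. Of 7 paralogs, 6 were marked, with a median width of 3102 bp, and the muscle gene Rpl3l was not. The testis paralogs Rpl10l (2675 bp, 165 tags) and Rpl39l (1422 bp, 102 tags) had 61.7 and 71.7 tags per kb, the lowest values of the 6. Rpl36al (6262 bp) and Rps27l (3510 bp) also had an ASH2L peak.

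Ribosomal protein genes have many processed pseudogenes, copies without introns or promoter, to which short reads of the parent genes can be assigned. Among 249 annotated processed pseudogenes of ribosomal proteins, 36 had an H3K4me3 peak at their start (14.5%, interval 10.6% to 19.4%), and 5 of these peaks also overlapped the promoter of a protein-coding gene. The share in all processed pseudogenes was 9.04% (831 of 9193), and 112 of these 831 also had their peak over such a promoter. The 36 peaks of ribosomal protein pseudogenes were narrow (median 1396 bp, 93 tags), as were those of all processed pseudogenes (1314 bp, 97 tags). None of the 249 had an ASH2L peak, compared with 12 of the 9193. How reads that match several copies entered the peak calling is not given in the sources used here, and their part in the number of tags at the parent genes was not tested.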

How the data were processed

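HA-ASH2L and H3K4me3 were profiled by CUT&RUN, with 2 merged replicates behind each of 2 deposited peak lists. Per the methods, the authors trimmed paired reads, aligned them to mm10 and kept short fragments, although the tag sizes in the headers, 151 bp for ASH2L and 142 bp for H3K4me3, exceed their size limit. The submitters' processing notes name Bowtie2, SAMtools 1.5, bedtools, HOMER 4.10 and MACS 1.4, and the headers name MACS 1.4.3 without a control and with a p-value cutoff of 1e-05. At each position 1 tag was kept, which left 27328071 of 39669806 H3K4me3 and 25677963 of 26545897 ASH2L tags. The deposited tag count is the whole number of tags of the authors' merged library in a peak, not normalized. The deposited score is -10 times the log10 of the authors' p-value, and the fold enrichment, also deposited, is a ratio of summit tags to the background modelled by the authors' peak caller. Tags were not compared between the lists, since their totals and the share of tags in peaks differ. No fit or test across genes could be made, as the lists have no values for single samples.

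Promoters of GENCODE vM21 transcripts on GRCm38.p6 (mm10) were overlapped with both lists. A gene's representative start site was that of the transcript with the best APPRIS rank, then with a CCDS entry, then with the longest exons. Medians have 95% order-statistic intervals and shares 95% Wilson intervals. The overlap and the intervals of medians were tested on simulated data. Genes named were those with an ASH2L peak, those without an H3K4me3 peak, the 3 highest and 3 lowest by width, tags and fold enrichment, the first 3 with more than 1 H3K4me3 peak, the stalk genes and 12 with known roles; other genes were named after their values were seen. Some genes that this rule selects are counted but not reported here by name. The members and lists were chosen with earlier results of these data known, and the CpG limit of 0.6 after seeing these values. Python 3.11.15 was used with pandas 2.3.3, numpy 2.4.6, scipy 1.17.1, pysam 0.24.0 and matplotlib 3.10.9.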

Additional observations from a re-analysis of the deposited data

How the results depend on the processing

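No paired analysis was possible because the replicates were merged before the peaks were called. Alternatives were compared with the 95% interval of the reported value, and 33 of 42 alternative values stayed within it. The share of marked ribosomal protein genes was 26.8% when the midpoint of the peak had to lie in the promoter (38.1% of all genes), and the cause was not tested. Restricting the H3K4me3 list to peaks at or above its median fold enrichment of 6.46 left 1.41% (36.7% of all genes). This was 1 gene, Rpl29, with 4642 bp, 599 tags, 129 tags per kb, a fold enrichment of 8.08 and 0.0% with ASH2L. Under this restriction, 10.3% of all marked genes had an ASH2L peak. The share in marked ribosomal protein genes was also 0.0% with the representative start site alone, compared with 10% of all marked genes. With scores of at least 100 it was again 0.0%, compared with 1.38% of all marked genes. The 45 and 71 genes, a single merged library without a control and the annotated start sites limit the precision of all values.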
